A study of Homo sapiens with 2 samples.

Results

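Tubulins are the proteins that microtubules are built from, and their transcripts were followed here in HepG2 cells, an established human hepatocellular carcinoma line that keeps many traits of hepatocytes. The genes were 4 α-tubulins (TUBA1A, TUBA1B, TUBA1C, TUBA4A), 5 β-tubulins (TUBB, TUBB2A, TUBB2B, TUBB4B, TUBB6), and 1 γ-tubulin (TUBG1). They were chosen by name, with earlier results of these data known. Every probe on the array whose RefSeq transcript belongs to 1 of these 10 genes was taken. This gave 17 of the 29680 probes, and 10 of the 23752 genes and unnamed transcripts, that the arrays could measure. Measured means well above background in DMSO, HTE, or both. The study hybridised 1 Agilent array with RNA of cells given dimethyl sulfoxide (DMSO), the vehicle, for 24 h, and 1 array with RNA of cells given hawk tea extract (HTE) for 24 h. Both groups were the same unmodified line in the same medium with serum, and the labels state 200 μg mL−1 HTE whereas the study's text and the name of the array give 300 μg mL−1, so the dose of this array is not settled. With 1 array per condition there was no test between the conditions, the spread between cultures is unknown, and array and treatment cannot be told apart, although both arrays lay on the same slide and were scanned together.

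An α-tubulin and a β-tubulin form the dimer that polymerises into microtubules, which carry cargo and hold the shape of the cell in interphase and are rebuilt into the spindle at mitosis. γ-Tubulin starts new microtubules as part of a ring complex at the centrosome. New tubulin chains pass through prefoldin, the CCT chaperonin, and a set of dedicated cofactors before they pair. Cells also adjust tubulin mRNA to the amount of free dimer, since an excess of dimer brings about the decay of tubulin mRNA while it is being translated, with TTC5 as the factor that recognises the nascent chain. The members are closely related in sequence, and several isotypes are best known from other tissues, TUBB2A and TUBB2B from neurons among them.

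TUBB2B and TUBB2A were the members with a probe more than 2-fold apart between the arrays, and they are next to each other on chromosome 6. The 250 bases before their RefSeq starts are shown beside those of TUBB4B, a β-tubulin that was slightly lower after HTE, to let the promoters of members that differed be compared. The windows (GRCh38.p14, each written 5′ to 3′ on the strand of its gene) are chr6:3157545-3157794 on the minus strand for TUBB2A, chr6:3227654-3227903 on the minus strand for TUBB2B, and chr9:137241037-137241286 on the plus strand for TUBB4B. Capitals mark TATAAA (the TATA box), then CCAAT (the CCAAT box), and finally TGACGT (the core of a cAMP response element), or these letters on the other strand.
TUBB2A: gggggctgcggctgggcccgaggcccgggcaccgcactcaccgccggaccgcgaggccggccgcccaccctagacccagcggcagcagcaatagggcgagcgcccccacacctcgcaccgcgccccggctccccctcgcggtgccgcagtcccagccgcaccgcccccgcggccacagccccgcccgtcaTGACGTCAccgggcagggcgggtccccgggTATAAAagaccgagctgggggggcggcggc
TUBB2B: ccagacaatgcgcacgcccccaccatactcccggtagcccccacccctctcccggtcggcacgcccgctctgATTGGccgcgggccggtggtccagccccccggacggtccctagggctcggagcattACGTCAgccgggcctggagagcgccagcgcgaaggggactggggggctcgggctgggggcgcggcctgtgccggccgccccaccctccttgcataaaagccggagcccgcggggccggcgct
TUBB4B: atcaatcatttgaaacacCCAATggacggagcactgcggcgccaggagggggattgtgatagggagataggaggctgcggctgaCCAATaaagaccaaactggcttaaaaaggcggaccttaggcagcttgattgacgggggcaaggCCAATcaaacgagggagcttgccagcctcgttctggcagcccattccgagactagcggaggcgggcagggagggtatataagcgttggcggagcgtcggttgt

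The TUBB2A and TUBB2B windows were identical at 149 of 283 aligned positions (52.7%), which lies within the 40.0% to 58.3% of the 85 other pairs of member windows. TUBB2A held the letters TATAAA 30 bases before the start. TUBB2B held the CCAAT box on the other strand and TUBB4B held it 3 times. Only exact letters were counted, so near variants of the TATA box were left out. Such variants are tatataa in the TUBB4B window and cataaaa in the TUBB2B window, so these 2 windows cannot be said to lack one. The letters TGACGT, to which CREB and ATF factors bind, were looked for after the sequences had been seen. They were in the TUBB2A window, as 2 overlapping matches on opposite strands, and in the TUBB2B window, and in none of the other 12 windows of the members, some of which overlap. Of all 35116 windows of this length, 7.10% held TGACGT on either strand, 10.7% held the TATA box, and 32.0% held the CCAAT box, and the last was in 9 of the 14 member windows. The GC box, spelled GGGCGG, was in 9 of the 14 windows and 42.6% of all, and TTTGAA, the CHR element of cell cycle promoters, was in 3 of the 14 and 13.3% of all. A match describes the letters only, and no binding was measured.

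Levels are given as log2 of the processed signal (the background-subtracted brightness of a spot, as deposited) relative to the 75th percentile of its array, so that 0 is a signal of 4020.0 on the DMSO array and 3570.3 on the HTE array, and 1 unit is a doubling. A log2 ratio is the HTE level minus the DMSO level, and 2-fold, the limit used by the study, is a log2 ratio of 1. All 17 probes were well above background on both arrays, none was saturated or flagged as an outlier, and 16 of them (at least 1 for each gene) lay above the 75th percentile on both. Each had 1 spot per array. The error model of the scanner software gave a log2 ratio an error of 0.204 to 0.206 for these probes, whereas replicate spots of 688 other probes had a median SD of 0.051 and the probes of 3759 genes with several had one of 0.165. None of these errors holds the spread from culture to culture. Ratios of tubulin probes below about the error of the software are therefore within the error of the arrays. A ratio beyond that error is not thereby a difference between the conditions.

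**Figure D1:**
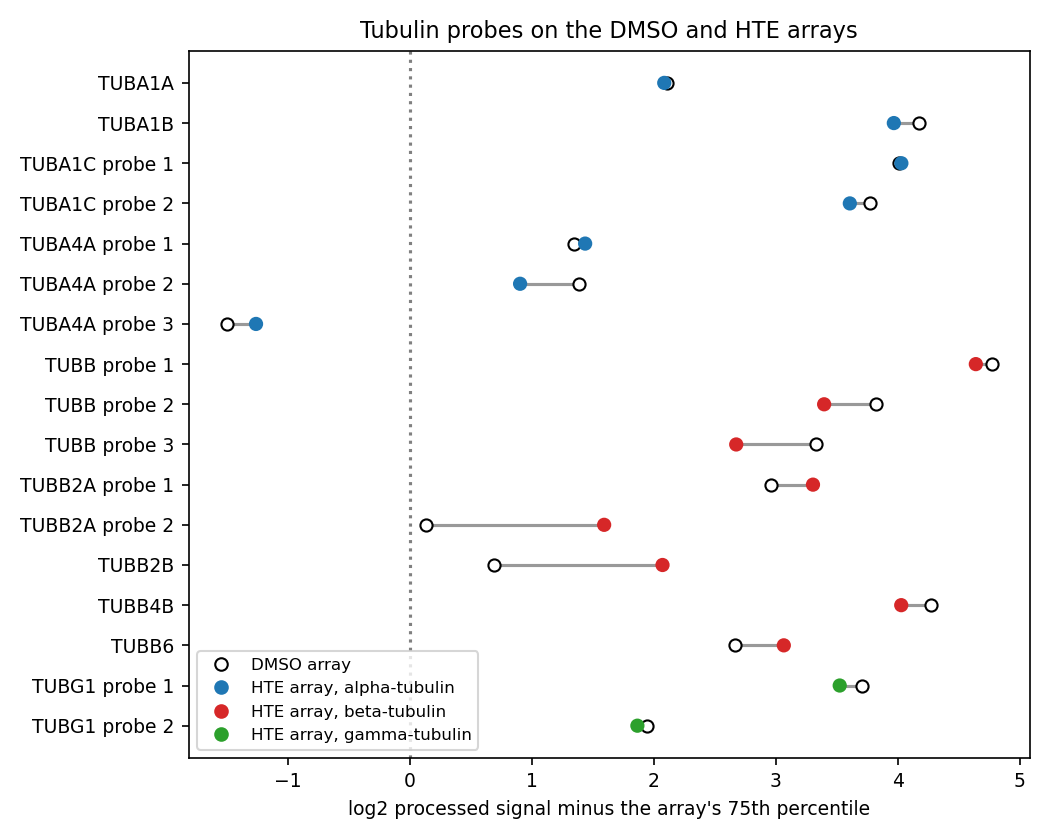
Level of each tubulin probe on the DMSO array (open circles) and on the HTE array (filled circles), as log2 processed signal minus the 75th percentile of the array, with the probes of a gene numbered from the brightest. The longest steps to the right are those of the second TUBB2A probe (0.13 to 1.59) and of TUBB2B (0.69 to 2.07), and the longest to the left is that of the third TUBB probe (3.33 to 2.68).

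Among the β-tubulins, TUBB2B was at a level of 0.69 in DMSO-treated cells and 2.07 in HTE-treated cells. Its log2 ratio was thus 1.38, or 2.61-fold higher after HTE, several times the error of the arrays and above 97.5% of all genes measured. It rests on 1 probe (A_24_P314477). In RNA of whole cultures, a change in the share of cells that express a gene and a change in its mRNA per cell cannot be told apart. The 27 usable spots around it on the array had a median log2 ratio of 0.25, the largest such value among the member probes, and its part in the ratio was not tested.

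TUBB2A, its close relative, had 2 probes that did not give the same size of difference. At the brighter probe (A_23_P19291) the level was 2.96 in DMSO and 3.30 in HTE, a log2 ratio of 0.34 (1.27-fold). The dimmer probe (A_33_P3365002) went from 0.13 to 1.59, a log2 ratio of 1.46 (2.75-fold). Both probes were higher after HTE, but their ratios were 1.11 apart, an SD of 0.79 that only 94 of 3759 genes with several probes (2.50%) reached. The spots around the 2 probes had median ratios of 0.061 and 0.068. The dimmer probe and the TUBB2B probe had ratios 0.076 apart, which is within the error. Whether either TUBB2A probe also binds TUBB2B or another tubulin mRNA was not tested.

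TUBB6, a β-tubulin found in many tissues, was the third higher β-tubulin, with a level of 2.66 in DMSO and 3.07 in HTE. Its log2 ratio of 0.40 (1.32-fold) was about 2 times the error of the software and did not reach 2-fold. It was 0.059 above that of the brighter TUBB2A probe, so that these do not differ beyond their error.

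The other β-tubulins were lower or level. TUBB, the main β-tubulin of dividing cells, had 3 probes, and all were lower after HTE. The brightest went from 4.77 to 4.64 (log2 ratio of -0.13), the second from 3.82 to 3.40 (-0.42), and the dimmest from 3.33 to 2.68 (-0.65, or 1.57-fold lower). The probes thus agreed on the direction, with the brightest inside the error and the other two outside it. TUBB4B, also widely expressed, was at 4.27 in DMSO and 4.03 in HTE, a log2 ratio of -0.24, just over the error of the software.

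The α-tubulins were close to level at their brightest probes, with log2 ratios between -0.20 and 0.092. TUBA1B, the common α-tubulin of dividing cells, was at 4.17 in DMSO and 3.97 in HTE (log2 ratio of -0.20). TUBA1A, the α-tubulin best known from neurons, was at 2.11 and 2.09 (-0.026). TUBA1C was at 4.01 and 4.03 at its brighter probe (0.018), and at 3.77 and 3.61 at the dimmer one (-0.16). None of these 4 ratios was beyond the error of the software.

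TUBA4A was the α-tubulin whose probes parted in direction. Its first probe was at 1.34 in DMSO and 1.44 in HTE (log2 ratio of 0.092), the second at 1.38 and 0.90 (-0.48), and the third, the dimmest of all member probes, at -1.50 and -1.26 (0.24). No direction can be given for this gene. TUBG1, the γ-tubulin, was at 3.71 and 3.52 at its brighter probe (-0.18) and at 1.94 and 1.87 at the other (-0.075), both within the error.

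**Figure D2:**
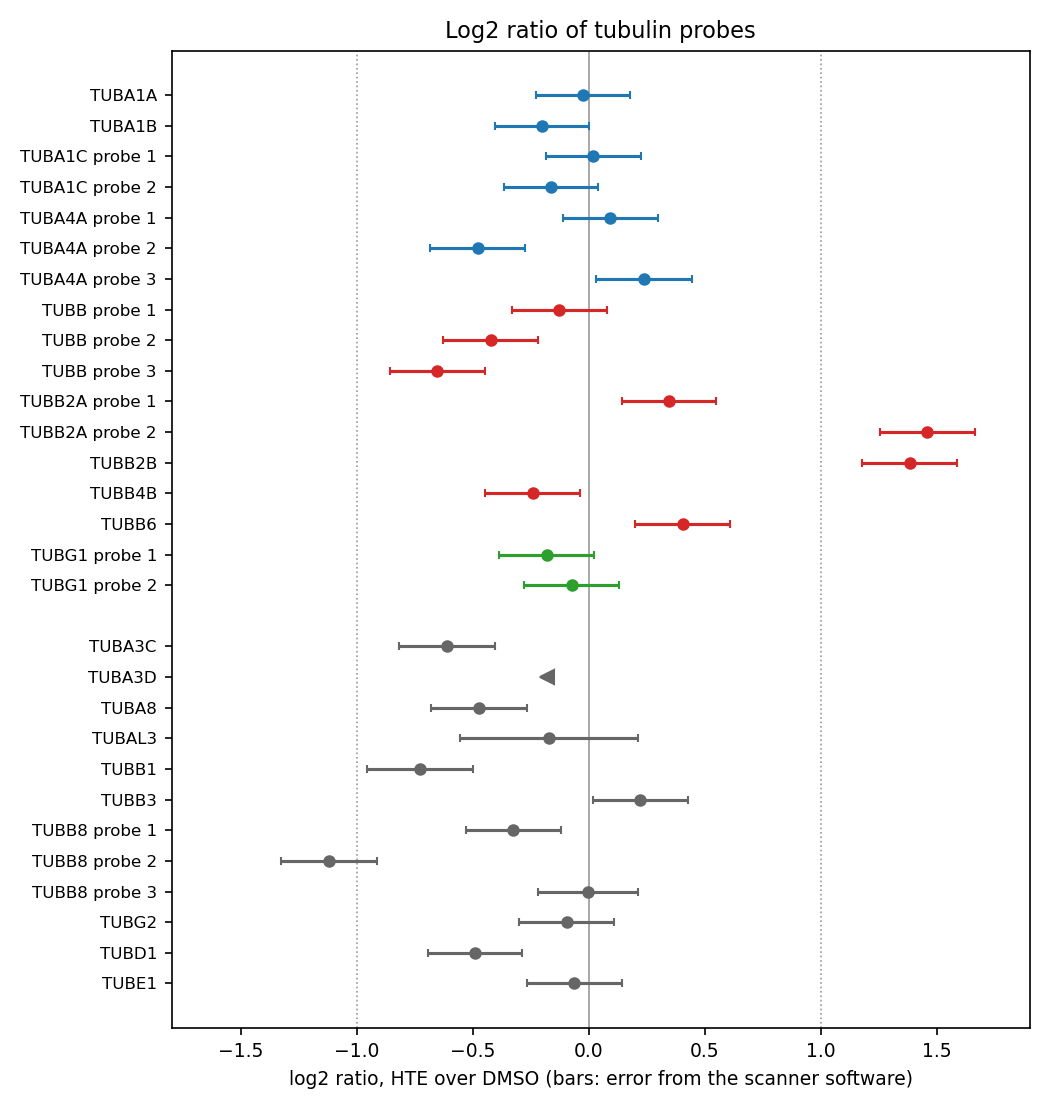
Log2 ratio of HTE over DMSO for each probe of the tubulin members (α in blue, β in red, γ in green) and, in grey, of the other tubulin genes, with bars for the error of the scanner software, dotted lines at 2-fold, and an arrowhead for a bound. Only the TUBB2B probe and the second TUBB2A probe lie above 1, and the second TUBB8 probe (-1.12) is the one below -1.

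Counted at the brightest probe of each gene, 1 of the 10 members was at least 2-fold higher after HTE and none was 2-fold lower, where 5.25% of all 23752 genes were 2-fold higher and 3.03% were 2-fold lower. Bright genes passed 2-fold less often, with 1.27% higher and 1.15% lower among the 8694 genes above the 75th percentile on both arrays, where all 10 members lie. Below 0 were 5 of the 10 members, against 49.0% of all genes and 52.5% of the bright ones. Of all genes, 10849 were above 0 and 11631 below. The rest stood at exactly 0, where bounds were cut. The median log2 ratio of the members was -0.0039, against 0 over all genes and -0.018 over the bright genes, and it ranged from -0.24 (TUBB4B) to 1.38 (TUBB2B). By probe, 2 of 17 were 2-fold higher, none 2-fold lower, and 10 were below 0, where 5.20% of all 29680 probes were 2-fold higher, 2.90% were 2-fold lower, and 48.1% were below 0. The share of members past 2-fold thus rests on 1 gene, and the median of the members lay near that of the background.

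The members in clusters were set beside their neighbours on the chromosome, by the gene order of GRCh38.p14. Next to the TUBB2A and TUBB2B pair, BPHL had a log2 ratio of 0.43, RIPK1 of -0.083, PSMG4 of -0.46, and SLC22A23 of -0.079. None of these 4 genes was 2-fold higher, where 5.25% of all genes were. Around the cluster of TUBA1B, TUBA1A, and TUBA1C on chromosome 12, LMBR1L was at 0.66, PRPH at 0.92, and TROAP at -0.94, and DHH was too dim on both to be measured. The 3 α-tubulins lay between genes with larger ratios in both directions.

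Of 12 further tubulin genes, 10 were measured, and 9 of them were below 0 at their brightest probe with a median log2 ratio of -0.25, where 49.0% of all genes were below 0. Among the 9, TUBA3D is a bound, and no gene was past 2-fold, where 5.25% of all genes were 2-fold higher and 3.03% lower. TUBB3, the β-tubulin used as a marker of neurons, was the one above 0, at a level of 3.35 in DMSO and 3.58 in HTE (log2 ratio of 0.22). The lowest were TUBB1, the β-tubulin of platelets, at -2.80 and -3.53 (-0.73), and TUBA3C, at -0.99 and -1.60 (-0.61). TUBD1 and TUBE1, the δ- and ε-tubulins of the centriole, had ratios of -0.49 and -0.063, and TUBG2, the second γ-tubulin, of -0.097. TUBA8 was at -0.47, and TUBAL3, which was dim, at -0.17. Of the genes below 0, TUBG2, TUBE1, TUBAL3 (error of 0.38), and TUBA3D lay within their software error.

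TUBB8, known from the oocyte, had 3 probes with ratios of -0.33, -1.12, and -0.0046 from the brightest to the dimmest, so that the size of its difference depends on the probe. TUBA3D was well above background on the DMSO array only. Its bound was 1.14-fold lower after HTE (log2 ratio of -0.18), which is within its software error of 0.45, so no direction can be given. TUBB4A was not well above background in DMSO or in HTE, and TUBA3E had no probe under its name.

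Lists of genes that fold tubulin and regulate its mRNA had medians between -0.17 and 0.023. The 14 genes of prefoldin and the CCT chaperonin had a median log2 ratio of -0.029, from TCP1, a CCT subunit (-0.47), to PFDN6, a prefoldin subunit (0.16). None was past 2-fold, where 5.25% of all genes were 2-fold higher and 3.03% lower. The 7 genes of the cofactor list had a median of 0.023, from TBCD (-0.067) to ARL2, a small GTPase that acts with TBCD (0.32). In the list of 8 genes for the decay of tubulin mRNA on the ribosome, the median was -0.17. TTC5 was the lowest of them, from a level of 1.64 in DMSO to 1.22 in HTE (-0.43), and CNOT1, the scaffold of the CCR4-NOT deadenylase, the highest (0.47). None of these 8 genes was past 2-fold. Below 0 were 10 of the prefoldin and CCT genes, 3 of the cofactor list, and 6 of the decay list, where 49.0% of all genes were.

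Genes that nucleate, modify, or bind microtubules were more varied. Of the 16 measured genes of the γ-tubulin ring complex and augmin, which branches spindle microtubules, 14 were below 0 with a median log2 ratio of -0.40, where 49.0% of all genes were below 0. HAUS8, an augmin subunit, was the 1 gene that was 2-fold lower (1.11 to -0.21, a ratio of -1.31), where 3.03% of all genes were, and TUBGCP6 was the highest (0.12). This count depends on the probe. The other HAUS8 probe was at -0.98, and TUBGCP3 was at -0.68 at its brightest probe and at -1.23 at its other. The 14 measured tubulin modifying enzymes had a median of 0.068 with none past 2-fold, from TTLL4, a polyglutamylase (-0.35), to SIRT2, a tubulin deacetylase (0.86). The 16 interphase microtubule regulators had a median of -0.13. MAP1B, a microtubule-associated protein best known from neurons, was the 1 of them past 2-fold. Over all genes, 5.25% were 2-fold higher and 3.03% lower. The level of MAP1B was 1.46 in DMSO and 3.14 in HTE, a log2 ratio of 1.69 (3.23-fold), and its 2 probes gave 1.69 and 1.78. CAMSAP1, which was well above background on the DMSO array only, was at least 1.61-fold lower.

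The motors and factors of the spindle had lower medians than the tubulins they act on. All 12 measured mitotic kinesins were below 0, where 49.0% of all genes were, with a median log2 ratio of -1.18. Of the 12, 8 were 2-fold lower, where 3.03% of all genes were. These were KIF15 (-1.73), KIF20A (-1.45), KIF4A (-1.30), KIFC1 (-1.30), KIF22 (-1.25), KIF2C (-1.23), KIF14 (-1.13), and KIF20B (-1.06), and KIF11 was nearest to 0 (-0.47). The other KIF4A probe was at -0.86. Of 13 spindle assembly factors 12 were below 0 with a median of -1.02, and 7 were 2-fold lower, PLK1 (-1.74), TPX2 (-1.48), AURKA (-1.37), ASPM (-1.20), SPAG5 (-1.09), NUSAP1 (-1.08), and TACC3 (-1.02), with NUMA1 the one above 0 (0.23). The kinesins and dynein subunits of transport had a median of 0.11 over 16 genes, from KIF16B (-0.33) to KIF3B (0.47). None of these 16 was past 2-fold, where 5.25% of all genes were 2-fold higher and 3.03% lower. No tubulin member lay as low as the highest mitotic kinesin at its brightest probe. The second TUBA4A probe (-0.48) and the dimmest TUBB probe (-0.65) did lie lower than KIF11. The difference between the lists has no test with 1 array per condition, and the lists were chosen with earlier results of these data known.

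The medians of the other filament systems were also near 0. The actin list had a median log2 ratio of 0.16 over 13 measured genes. Below 0 were 2 of them, where 49.0% of all genes were. None was past 2-fold at its brightest probe, where 5.25% of all genes were 2-fold higher and 3.03% lower. At these probes the list ran from ACTN4 (-0.11) to CFL1, which severs actin filaments (0.49). Of the 7 genes of intermediate filaments and lamins, with a median of -0.051, LMNB1, a lamin of the nuclear envelope, was 2-fold lower (1.37 to 0.019, a ratio of -1.35), and VIM was the highest (0.46).

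**Figure D3:**
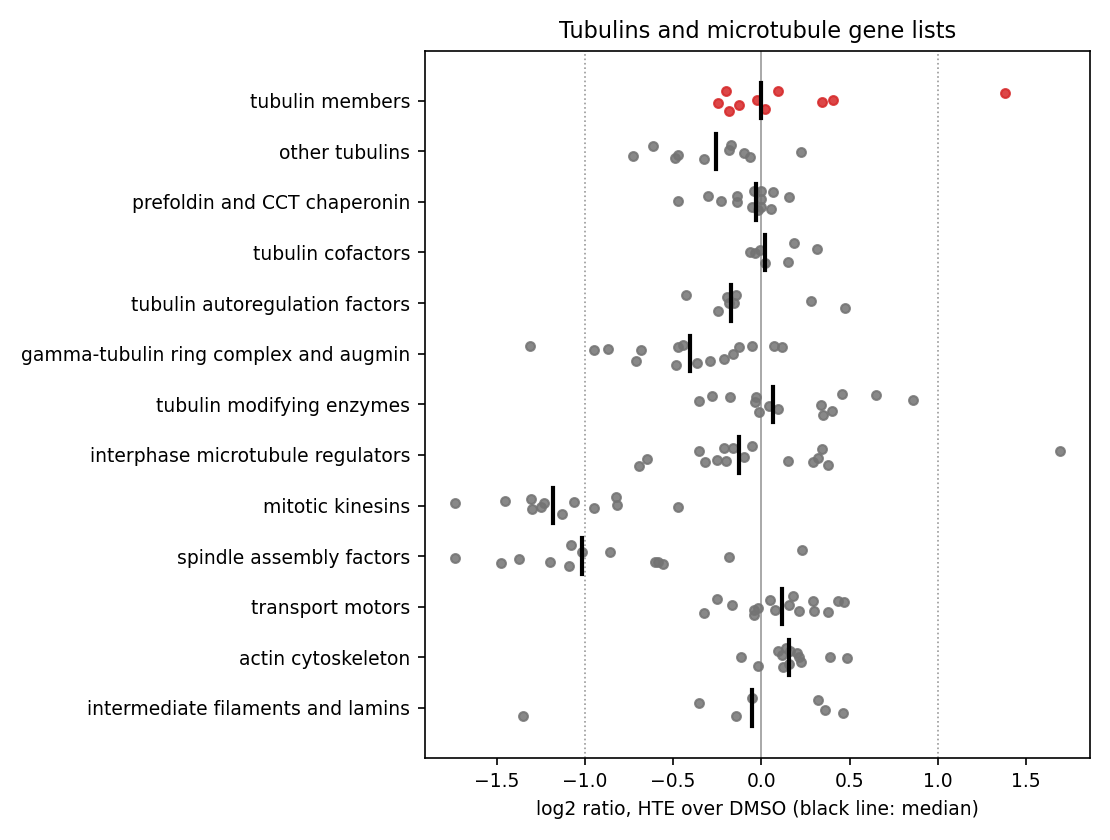
Log2 ratio of HTE over DMSO for each measured gene (points, at its brightest probe) of the tubulin members (red) and of 12 lists of microtubule and cytoskeleton genes (grey), with a black line at the median of each list and dotted lines at 2-fold. The medians of the mitotic kinesins (-1.18) and spindle assembly factors (-1.02) lie near or below -1, and that of the tubulin members (-0.0039) at 0.

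The label of the cells was checked on both arrays. All 10 hepatocyte markers were well above background on both, at levels from -2.19 (HNF4A) to 5.37 (APOA1) in DMSO and from -2.05 to 5.58 in HTE, and log2 of their summed linear level was 7.68 in DMSO and 7.80 in HTE. Of 6 markers of fibroblasts, leukocytes, and endothelium 5 were measured, at log2 of a summed level of 0.98 and 1.15, and COL1A2 was not well above background. The measured ones ran from -4.47 to 0.042 in DMSO and from -5.10 to 0.51 in HTE. CD68 and PTPRC, both of the leukocyte list, lay above HNF4A on both arrays. Among them PECAM1 was lower after HTE (-1.82) and CD68 higher (0.46), and their part in the tubulin values was not tested.

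The scaling of the arrays sets where 0 lies. The TUBB2B ratio was 1.21 without any scaling, 1.30 with scaling to the median, 1.37 with normexp background correction, and 1.41 with quantile normalization, so that it stayed 2-fold higher under each. A scaling on E1A, the spike-in RNA, whose spots were brighter in HTE, moved all ratios down by 1.22, to 0.16 for TUBB2B, and put 7 of the 10 members 2-fold lower, beside 16205 of all genes. TUBB6 and the brighter TUBB2A probe were above 0 under every scaling but that one, where they were at -0.82 and -0.88.

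**Figure D4:**
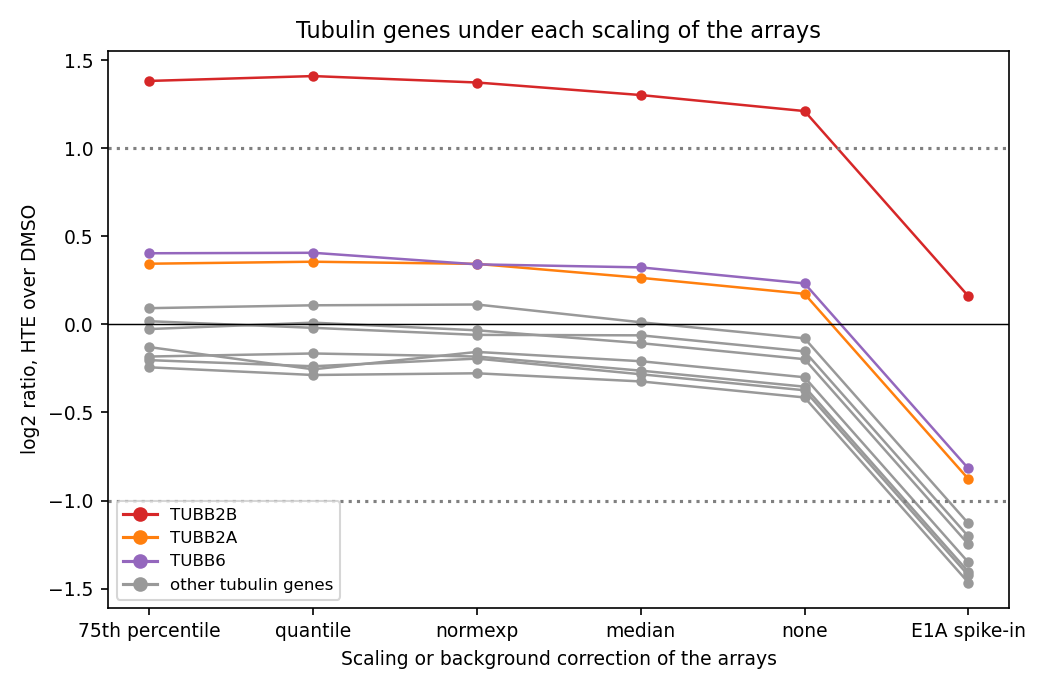
Log2 ratio of HTE over DMSO of the 10 tubulin genes, at the brightest probe of each, under 6 scalings or background corrections of the arrays, with dotted lines at 2-fold. TUBB2B, TUBB6, and TUBB2A keep the 3 highest places under each, and the spike-in scaling moves all 10 genes down.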

How the data were processed

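The authors deposited the Agilent Feature Extraction output of each array (version 11.5.1.1 in the file header, 10.7 per the labels). As deposited by the authors, the intensity of a spot is the processed signal, which the software had background-subtracted and detrended and which was not scaled between arrays. The error column, the flags, and the median signals of spot and local background came from the same files.

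Here, log2 was taken, the 75th percentile over the 58717 spots of each array that are not controls was subtracted, outlier spots were then left out, and repeated spots were combined by their mean. Probes with a share of 0.5 or more of their spots well above background on an array entered, as a bound where this held for a single array. A bound that would have crossed 0 was set to 0. Of 50532 probes, 28146 were named through their RefSeq transcript in the gene table of GRCh38.p14. The file header names hg19, so no probe coordinates are given. Probe sequences and proteins were not used here. A gene stands at its brightest probe (by the mean of both arrays), which for several genes decides the value, and the genes named are the members, the other tubulins, and, of each list, those past 2-fold and the highest and lowest. The members and the lists were chosen with earlier results of these data known. Promoter windows came from RefSeq (GRCh38.p14), where all 10 members matched, and were aligned end to end.

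No test, p value, or random list was used. The alternatives were normexp correction (offset 50) of the median signal in limma, 4 other scalings (E1A spike-in over 8 probes well above background on both arrays), 2 other filters on dim probes, the own value of a dim probe, outlier spots kept, the mean over all probes, and a 1.5-fold limit, and, chosen after seeing the data, the dimmest probe of a gene. These steps were also tested on simulated data with known changes. The software was Python 3.11.15 with matplotlib 3.10.9, pandas 2.3.3, and numpy 2.4.6, and R 4.3.3 with limma 3.58.1.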

Additional observations from a re-analysis of the deposited data

How the results depend on the processing

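No paired analysis was possible because there was 1 array per condition. A value was taken as moved when it changed by more than 0.165, the median SD among probes of a gene, and a count when it changed by over 1.5 times. The causes were not tested, except where a common shift or fewer probes follow from the setting itself.

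With the dimmest probe of each gene, chosen after seeing the data, 2 members were 2-fold higher, since TUBB2A went to 1.46. With the mean over all probes TUBB2A was at 0.90. TUBB moved the other way, from -0.13 to -0.65 with the dimmest probe and to -0.40 with the mean. Without scaling, which shifts all genes by -0.17, the medians were -0.18 for the tubulin members, -0.43 for other tubulins, -0.20 for prefoldin and CCT chaperonin, -0.15 for tubulin cofactors, -0.34 for tubulin autoregulation factors, -0.58 for the γ-tubulin ring complex and augmin, -0.10 for tubulin modifying enzymes, -0.30 for interphase microtubule regulators, -1.35 for mitotic kinesins, -1.19 for spindle assembly factors, -0.056 for transport motors, -0.015 for the actin cytoskeleton, and -0.22 for intermediate filaments and lamins. The median fell below 0 for the cofactors, modifying enzymes, transport motors, and actin list. With spike-in scaling, 0 members were 2-fold higher and 7 lower, and the medians, in the same order, were -1.23, -1.48, -1.25, -1.20, -1.39, -1.63, -1.15, -1.35, -2.40, -2.24, -1.11, -1.07, and -1.27. The 8 spike-in probes were 0.45 to 1.57 brighter on the HTE array on the log2 scale before scaling, so that this setting is itself uncertain. The interphase microtubule regulators were at 0.040 with the mean over all probes, and the intermediate filaments and lamins at -0.24 with quantile normalization.

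Over all genes, 1248 were 2-fold higher and 720 lower. Normexp gave 825 and 468, no scaling 883 and 1209, the spike-in 142 and 16205, no filter on dim probes 2390 and 1868, the own value of a dim probe 1341 and 1320, and a 1.5-fold limit 2953 and 2505.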
